A study of Mus musculus with 6 samples.

Results

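The mevalonate arm of cholesterol synthesis was followed in liver as 8 genes, Acat2, Hmgcs1, Mvk, Pmvk, Mvd, Idi1, Fdps and Fdft1, taken by symbol from a deposited table of 33495 genes. They encode enzymes on the route from acetyl-CoA to squalene. The table held counts for 19594 genes and for 7 of the 8. Hmgcs1 was listed on 2 rows, on the unplaced mm9 sequence chromosome 13_random (114527 to 132323 and 308437 to 326233), and both rows were empty. It is therefore named here without a level.

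The samples were 6 liver samples from male mice on a C57BL6 background aged 2 months, 3 labelled wild type and 3 labelled SHP -/- knockout. SHP is the orphan nuclear receptor encoded by Nr0b2. No agent or diet is named for either group, and the labels do not say which part of Nr0b2 was altered or whether the samples came from separate animals. RNA carrying a 5′ cap was selected from total RNA with a high-affinity EIF4E variant before sequencing. Library totals over genes ran from 4494353 to 7225842 counts, and mitochondrially encoded genes took 10.2% to 10.3% of wild-type counts and 5.66% to 7.10% of knockout counts. Levels below are in CPM, counts scaled to a common library size. Nr0b2 itself gave 17.7, 12.3 and 13.5 CPM in the wild-type libraries 1 to 3 and 6.62, 7.07 and 10.3 CPM in the knockout libraries 1 to 3, an order kept throughout, so its transcripts were lower but still present in the knockout libraries. Fitted by limma voom, Nr0b2 was lower by −0.81 ± 0.25 on the log2 scale (SE; adjusted p = 0.0443), and it stayed past the threshold in 1 of the 6 fits on 5 libraries. Hepatocyte markers dominated both groups, with Alb, Apoa1, Ttr and 6 others summing to 77643 to 99973 CPM in wild type and 87552 to 94463 CPM in knockout. Summed levels of Kupffer cell markers (11 genes, 422 to 493 CPM in wild type and 433 to 664 in knockout), sinusoidal endothelial markers (8 genes, 493 to 534 and 334 to 514), stellate markers (9 genes, 384 to 422 and 207 to 420), cholangiocyte markers (6 genes, 47.0 to 50.7 and 31.3 to 62.5) and lymphocyte and erythroid markers (7 genes, 130 to 154 and 132 to 157) overlapped between the groups. Of the single markers, 3 of the 11 Kupffer, 1 of the 8 endothelial and 1 hepatocyte gene were called higher and 1 stellate and 1 hepatocyte gene lower, and none was at 0 in every library. The shares called over all genes tested were 7.58% higher and 6.94% lower, so the few calls in the other lists say little about those cell types. The Kupffer calls stood above that share, with a median log2 difference of 0.26 over the 11 genes. With wild-type library 3 left out, 0 of the 11 were called. The part of cell types in the results below was not tested. In bulk RNA, fewer cells of a type and less RNA per cell cannot be told apart.

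As background, the mevalonate pathway starts in the cytosol. Acetoacetyl-CoA thiolase (Acat2) joins acetyl-CoA units, and HMG-CoA synthase (Hmgcs1) adds another. Mevalonate follows by a step whose enzyme is not among the genes followed here. Mevalonate kinase (Mvk) and phosphomevalonate kinase (Pmvk) add phosphates, and mevalonate diphosphate decarboxylase (Mvd) forms isopentenyl diphosphate, the building block of all isoprenoids. The isomerase Idi1 turns it into the allylic form, farnesyl diphosphate synthase (Fdps) condenses these units, and squalene synthase (Fdft1) commits farnesyl diphosphate to sterols. In liver the genes of the pathway are known targets of the transcription factor SREBP2, which is activated when sterol in the endoplasmic reticulum is low and which binds sterol regulatory elements, often beside CCAAT boxes bound by NF-Y.

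Of the 7 enzymes with counts, 4 had higher transcript levels in knockout liver (Mvk, Pmvk, Mvd and Fdps), 0 had lower levels and 3 did not pass the threshold (Acat2, Idi1 and Fdft1). A gene passed at a Benjamini-Hochberg adjusted p under 0.05 in limma voom, fitted over all 11794 genes tested. Over all genes tested, 7.58% were called higher and 6.94% lower (894 and 819 genes). With library totals that leave out mitochondrially encoded genes, 686 were higher and 1029 lower, and 3 of the enzymes were called (Mvk, Mvd and Fdps). Mvd changed most, by a fitted 3.66-fold (95% interval 2.34 to 5.72), and Pmvk least among the called enzymes, by 1.35-fold (1.11 to 1.64). The median log2 difference of the 7 enzymes was 0.85, against −0.01 over all genes tested. Every knockout library lay above every wild-type library for 5 of the 7 (Pmvk, Mvd, Idi1, Fdps and Fdft1), and 17.2% of all genes tested were separated in that direction, 17.9% in the other and 35.1% in either. Of the 7, Idi1 reached the minimum level for testing, 1.83 CPM in 3 libraries, in knockout libraries only, so its entry into the test already required it to be higher there. The median and the 5 separated enzymes given above include Idi1, and both would be lower without it. With 1 library left out, 4 enzymes were called when it was wild-type library 1, 3 when it was knockout library 2, and 2 for each of the other 4 libraries.

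**Figure D1:**
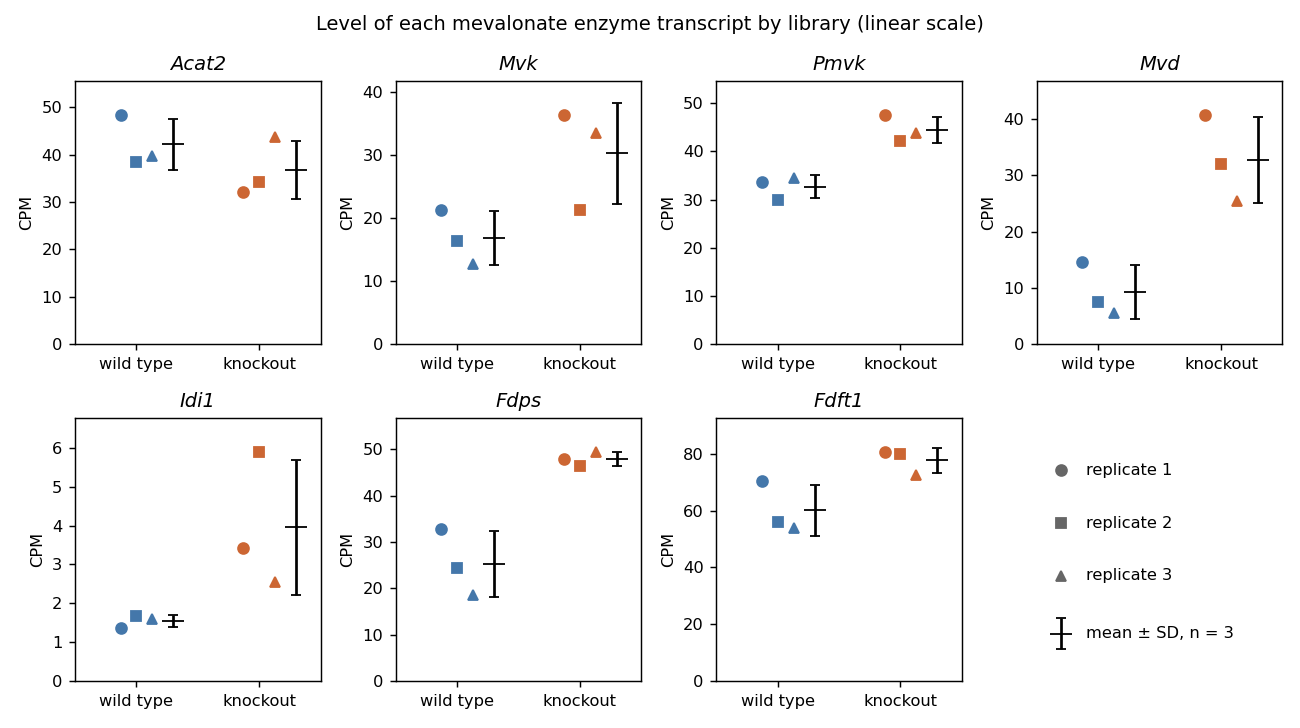
Level of the 7 counted enzymes in each library, in CPM on a linear axis from 0, with blue points for wild type, orange points for knockout, and black bars for the mean ± SD of 3 libraries. Knockout and wild-type points are separated for Pmvk, Mvd, Idi1, Fdps and Fdft1, touch for Mvk and mix for Acat2. Idi1 entered the test through its knockout libraries only, so its separation is no evidence of a difference.

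The sequences just upstream of 4 of the genes are shown so that exact matches to the motif strings searched for SREBP2 and NF-Y can be read directly. Hmgcs1 among them has no level here. Whether motif content went with the differences between the groups was not tested. RefSeq promoter entries (GRCm38.p6) matched 6 of the 8 genes, with no entry for Fdps or Fdft1. Pmvk and Idi1 had entries as well and are not printed, so the 4 shown are not the full set. Their matches are counted below. Each stretch below is the 250 bases before the annotated start, written 5′ to 3′ on the strand of the gene, at chr13:119690101-119690350 (plus strand) for Hmgcs1, chr5:114444019-114444268 (plus) for Mvk, chr8:122443423-122443672 (minus) for Mvd and chr17:12960726-12960975 (minus) for Acat2. Capitals mark matches to CCAAT or its complement ATTGG and to the sterol regulatory element motif TCACNCCAC. Variants of these strings were not searched for, so a window without a match may still hold a site for SREBP2 or NF-Y.
Hmgcs1: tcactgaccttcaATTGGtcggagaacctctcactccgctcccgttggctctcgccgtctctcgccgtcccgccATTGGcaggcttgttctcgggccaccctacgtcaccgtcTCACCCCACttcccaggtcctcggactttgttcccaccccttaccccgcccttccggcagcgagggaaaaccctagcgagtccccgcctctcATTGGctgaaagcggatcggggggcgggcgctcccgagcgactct
Mvk: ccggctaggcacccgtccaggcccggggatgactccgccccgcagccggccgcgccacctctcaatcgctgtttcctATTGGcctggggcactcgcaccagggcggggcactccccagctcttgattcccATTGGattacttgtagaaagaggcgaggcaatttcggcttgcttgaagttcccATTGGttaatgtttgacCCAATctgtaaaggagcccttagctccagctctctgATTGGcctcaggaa
Mvd: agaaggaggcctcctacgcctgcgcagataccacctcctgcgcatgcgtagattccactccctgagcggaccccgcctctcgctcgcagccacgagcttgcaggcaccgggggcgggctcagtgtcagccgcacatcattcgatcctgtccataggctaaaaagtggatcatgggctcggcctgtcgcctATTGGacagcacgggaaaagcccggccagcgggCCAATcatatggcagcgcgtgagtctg
Acat2: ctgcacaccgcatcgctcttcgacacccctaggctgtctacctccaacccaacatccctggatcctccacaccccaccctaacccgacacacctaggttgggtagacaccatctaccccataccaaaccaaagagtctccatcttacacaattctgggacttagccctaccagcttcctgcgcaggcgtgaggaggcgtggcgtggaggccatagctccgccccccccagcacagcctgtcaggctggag

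CCAAT, searched on both strands, occurred 5 times before the Mvk start, 3 times before Hmgcs1, 2 times each before Mvd and Idi1 and 1 time before 1 of the 2 annotated starts of Pmvk. It did not occur in the window before Acat2. Of 32851 promoter windows of the same length, 33.8% held at least 1 match and 10.1% at least 2. TCACNCCAC was found only before Hmgcs1, as TCACCCCAC from 137 to 129 bases before the start, and 1.05% of all windows held it. GGGCGG, the core of GC boxes bound by Sp1, occurred at least once before Acat2, Hmgcs1, Mvk, Mvd and Idi1, as in 32.7% of all windows. AAGGTCA, a motif bound by LRH-1, which SHP is known to repress, was found before Hmgcs1 alone among the 6 genes and in 4.08% of all windows. No motif overlapped another kind in these matches. They are letters in a window, and the counts do not show what was bound there.

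Acat2 (mm9 chromosome 17, 13135907 to 13153578), which opens the pathway, did not pass the threshold. It had 48.3, 38.4 and 39.7 CPM in wild-type libraries and 32.2, 34.2 and 43.6 in knockout libraries. The groups overlapped, with knockout library 3 above wild-type libraries 2 and 3. Fitted by limma voom, the difference was −0.18 ± 0.15 on the log2 scale (SE; adjusted p = 0.458), with a 95% interval from −0.51 to 0.15. Acat2 is the cytosolic thiolase and not the cholesterol-esterifying enzyme that has shared the abbreviation. Near copies were looked up for each enzyme after its values had been seen. The coding sequence of Acat2 is close to that of the neighbouring gene Acat3. In the GENCODE M21 annotation, 76.6% of the 36-base windows of the Acat2 coding sequence (36 bases is the length of 1 read) also occur in Acat3 transcripts. Acat3 (chromosome 17, 13116825 to 13133262) averaged 86.2 ± 6.63 CPM in wild-type and 104 ± 4.01 in knockout libraries (SD, n = 3 each), with a log2 difference of 0.28 ± 0.11 (adjusted p = 0.0987). The sources used here do not give how reads with several alignments were counted, and the split between Acat2 and Acat3 is uncertain. Their sum ran 133, 132 and 120 CPM over wild-type and 133, 143 and 147 CPM over knockout libraries.

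Mvk (chromosome 5, 114894278 to 114910600), the first kinase of the arm, had 21.3, 16.4 and 12.7 CPM in wild-type libraries and 36.3, 21.2 and 33.4 in knockout libraries. Knockout library 2 lay just under wild-type library 1, and the other knockout libraries lay above all wild-type libraries. On the log2 scale the knockout differed by 0.85 ± 0.23 (limma voom, adjusted p = 0.0274). On 5 libraries it was called in 2 of 6 fits and missed the threshold when wild-type library 2 (adjusted p = 0.0733), wild-type library 3 (0.165), the first knockout library (0.0746) or the third knockout library (0.0769) was left out. Mvk shares its start region with Mmab, which encodes an enzyme of cobalamin metabolism and is read from the opposite strand 209 bases away. Mmab (chromosome 5, 114881043 to 114894068) had 22.2, 16.2 and 17.3 CPM in wild-type libraries and 27.9, 23.6 and 30.6 in knockout libraries. It rose with a log2 difference of 0.57 ± 0.18 (adjusted p = 0.0470), which 4 of the 6 fits on 5 libraries did not call (adjusted p up to 0.173), nor did the fits under plain library totals (0.0556), under totals without mitochondrial genes (0.0779) and without the low-count filter (0.0742).

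Pmvk (chromosome 3, 89263040 to 89272935), the second kinase, had 33.6, 29.9 and 34.5 CPM in wild-type libraries and 47.5, 42.2 and 43.8 in knockout libraries. The groups did not overlap, and each group was narrow. In limma voom the fitted log2 change was 0.43 ± 0.13 (adjusted p = 0.0414). The size held between 0.39 and 0.48 when any 1 library was left out, but the call was lost in each of those 6 fits (adjusted p from 0.0638 to 0.113), without the low-count filter (0.0788) and under totals without mitochondrial genes (0.0775).

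Mvd (chromosome 8, 124957504 to 124967290), the decarboxylase that yields isopentenyl diphosphate, had 14.7, 7.48 and 5.56 CPM in wild-type libraries and 40.6, 32.0 and 25.4 in knockout libraries. The lowest knockout library stood above the highest wild-type library, wild-type library 1. Fitted by limma voom, the difference was 1.87 ± 0.30 on the log2 scale (SE; adjusted p = 0.00159), and 74 of the 11794 genes tested (0.627%) had one at least as high, Mvd included. The call held in all 6 fits without 1 library, with log2 differences from 1.52 without wild-type library 3 to 2.28 without wild-type library 1. Mvd lies inside the long interval the table gives for Usp10 on the opposite strand, and Usp10, which encodes a deubiquitinase, had a log2 difference of 0.17 ± 0.11 (adjusted p = 0.322). Cyba, the p22phox subunit of NADPH oxidase, lies 695 bases away on the same strand and had 0.71 ± 0.28 (adjusted p = 0.107).

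Idi1 (chromosome 13, 8885214 to 8891614), the isomerase, was the lowest of the 7 enzymes with counts, at 8, 8 and 10 counts in the wild-type libraries and 15, 30 and 19 counts in the knockout libraries. These came to 1.37, 1.66 and 1.59 CPM against 3.43, 5.89 and 2.55 CPM, and the groups did not overlap. With no wild-type library at the minimum level for testing, Idi1 could enter only if all knockout libraries reached it. That separation is therefore no evidence of a difference. On the log2 scale the knockout differed by 1.17 ± 0.48 (limma voom, adjusted p = 0.117), with a wide 95% interval from 0.14 to 2.20. A processed copy of Idi1 on chromosome 2 (53555155 to 53555838; Gm13502 in GENCODE M21) held more counts than Idi1 itself. It had 27.1, 22.4 and 21.1 CPM in wild-type libraries and 23.5, 25.3 and 29.3 in knockout libraries, with a log2 difference of 0.17 ± 0.16 (adjusted p = 0.527). Its transcript contains 79.4% of the 36-base windows of the Idi1 coding sequence, so reads from 1 of the genes may stand under the other. Idi1 made up 4.79% to 18.9% of the pair's CPM. The paralog Idi2 had 2, 2 and 0 counts in knockout and 0 in each wild-type library.

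Fdps (chromosome 3, 88897511 to 88905812), farnesyl diphosphate synthase, had 32.8, 24.3 and 18.6 CPM in wild-type libraries and 47.9, 46.4 and 49.4 in knockout libraries. The knockout libraries lay close together and all above wild type. In limma voom the fitted log2 change was 0.97 ± 0.18 (adjusted p = 0.00354). It was called in each fit without 1 library, with log2 differences from 0.75 (wild-type library 3 left out) to 1.19 (wild-type library 1 left out). Copies at other loci contain 82.9% of the 36-base windows of its coding sequence. The 1 such copy with counts that shares at least 10% of those windows was Gm8163 on chromosome X (57979564 to 57980623), which shares 23%. It averaged 2.85 ± 0.761 CPM in wild-type and 5.58 ± 1.55 in knockout libraries (log2 difference 0.93 ± 0.37, limma voom adjusted p = 0.108). Fdps held 86.8% to 91.5% of this pair, a share that leaves out the other copies behind the 82.9%. Rusc1, a scaffold protein gene that begins 277 bases beyond the 3′ end of Fdps on the same strand, had 3.24, 2.29 and 2.07 CPM in wild-type libraries and 5.48, 7.66 and 7.52 in knockout libraries. It rose with a log2 difference of 1.45 ± 0.36 (adjusted p = 0.0157), lost without wild-type library 3 (0.0916). GENCODE M21 lists a gene model, Gm43738, that spans Rusc1 and most of Fdps on that strand (GRCm38 chromosome 3, 89081939 to 89101099). Whether reads counted under Rusc1 came from transcripts that run on from Fdps was not tested.

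Fdft1 (chromosome 14, 63765242 to 63796687), squalene synthase, had the highest CPM of the 7 enzymes with counts, at 70.5, 55.9 and 53.8 CPM in wild-type libraries and at 80.6, 79.9 and 72.6 in knockout libraries. The groups were separated by a small gap between wild-type library 1 and knockout library 3. The log2 difference of 0.37 ± 0.13 did not pass (limma voom, adjusted p = 0.0660; 95% interval 0.10 to 0.65). Without wild-type library 1 it was 0.50 and passed (adjusted p = 0.0256). A processed copy on the same chromosome (19363877 to 19364974; Gm6781) contains 44.4% of the coding windows and averaged 14.3 ± 5.68 CPM in wild-type and 20.6 ± 4.53 in knockout libraries (adjusted p = 0.166). No coding window of Mvk, Pmvk or Mvd occurred in another gene's transcripts in GENCODE M21. For each gene only its longest protein-coding transcript was searched. The counted gene models of Mvk and Pmvk were longer than that transcript, at 2674 and 1514 bases against 1660 and 1194. How reads were assigned where Mvd lies inside Usp10 was not examined.

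**Figure D2:**
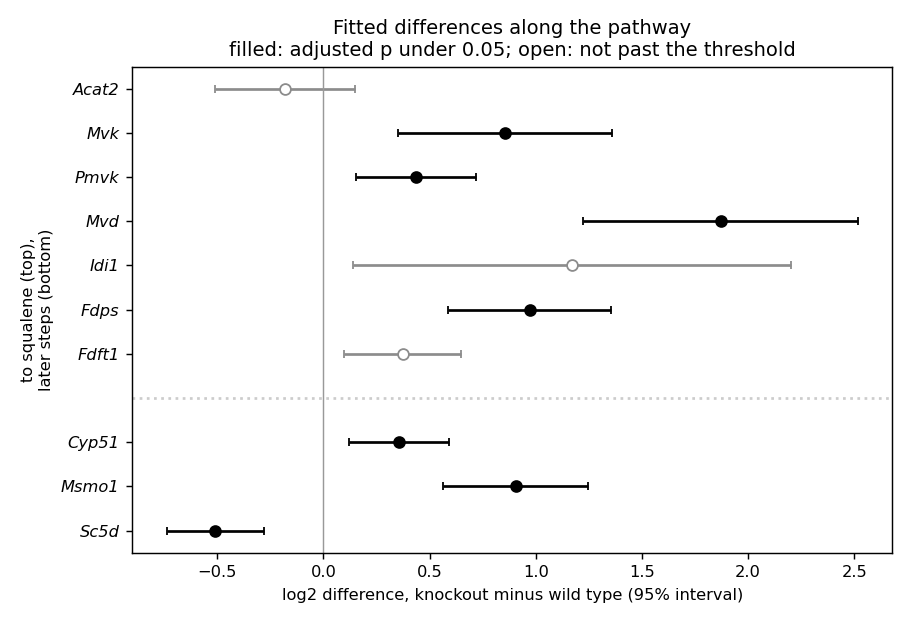
Fitted log2 difference (knockout minus wild type) with its 95% interval for the 7 enzymes to squalene, above the dotted line, and 3 enzymes from squalene to cholesterol, below it. Mvd lies farthest to the right at 1.87, Acat2 is the only enzyme of the upper block left of 0, and filled points passed the threshold.

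The authors' deposited table, which pools the libraries of a group, gave log2 ratios of −0.19 for Acat2, 0.85 for Mvk, 0.45 for Pmvk, 1.81 for Mvd, 1.27 for Idi1, 0.93 for Fdps and 0.38 for Fdft1. Its adjusted p was under 0.05 for 3 of the 7, with 0.00103 for Mvk, 9.84e-25 for Mvd and 9.77e-06 for Fdps in the authors' deposited table. Of the 19594 genes with counts, 7.83% were under that threshold in either direction. Pmvk, called here, had 0.132 in the authors' deposited table.

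The enzymes also differed in counted level among themselves when CPM were divided by the length of the counted gene model in kilobases. Other loci share 76.6% of the coding windows of Acat2, 79.4% of Idi1, 82.9% of Fdps and 44.4% of Fdft1. The levels of these enzymes, and so the order, may depend on how shared reads were assigned. Idi1 held only 4.79% to 18.9% of the CPM it shared with Gm13502. In wild type the order was Fdft1 (36.1 ± 5.44 CPM per kilobase), Fdps (21.6 ± 6.11), Pmvk (21.6 ± 1.59), Acat2 (20.4 ± 2.59), Mvk (6.29 ± 1.62), Mvd (5.37 ± 2.79) and Idi1 (0.621 ± 0.0625; SD, n = 3 each). The ranges of Fdps, Pmvk and Acat2 overlapped between neighbours in this order, as did those of Mvk and Mvd, while Fdft1 stood above and Idi1 below in all 3 wild-type libraries. In knockout the order was Fdft1 (46.7 ± 2.66), Fdps (41.0 ± 1.31), Pmvk (29.4 ± 1.79), Mvd (19.0 ± 4.45), Acat2 (17.8 ± 2.96), Mvk (11.3 ± 3.00) and Idi1 (1.60 ± 0.700). Mvd and Acat2 overlapped there, and the other neighbours did not. Mvd followed Mvk in wild type, with overlapping ranges, and stood above it in all knockout libraries. Summed over the 7 enzymes, the level was 222, 174 and 166 CPM for wild-type and 289, 262 and 271 CPM for knockout libraries.

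**Figure D3:**
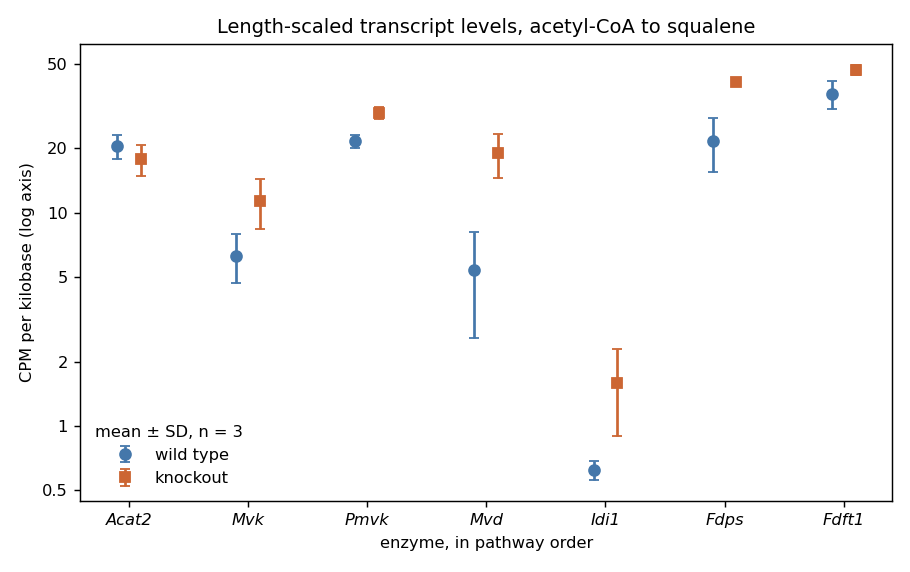
Length-scaled level of each counted enzyme in pathway order, in CPM per kilobase on a log axis, as mean ± SD of 3 libraries. Wild-type circles and knockout squares lie closest for Acat2 and farthest apart for Mvd (5.37 against 19.0), and Idi1 as counted is the lowest in both groups. Reads shared with near copies are not corrected for.

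Within the wild-type group, library 1 gave the highest CPM for 5 of the 7 enzymes (Acat2, Mvk, Mvd, Fdps and Fdft1), and library 3 the lowest for Mvk, Mvd, Fdps and Fdft1. In log2 CPM, library 1 stood above the wild-type mean by 0.78 for Mvd, 0.41 for Fdps and 0.37 for Mvk, and library 3 stood below it by −0.605 for Mvd, −0.40 for Fdps and −0.37 for Mvk. Leaving out wild-type library 3 gave the smallest differences for Mvk, Mvd, Fdps and Fdft1, and leaving out wild-type library 1 the largest for Mvd, Fdps and Fdft1. Among knockout libraries, library 1 was highest for 4 of the 7 enzymes (Mvk, Pmvk, Mvd and Fdft1).

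**Figure D4:**
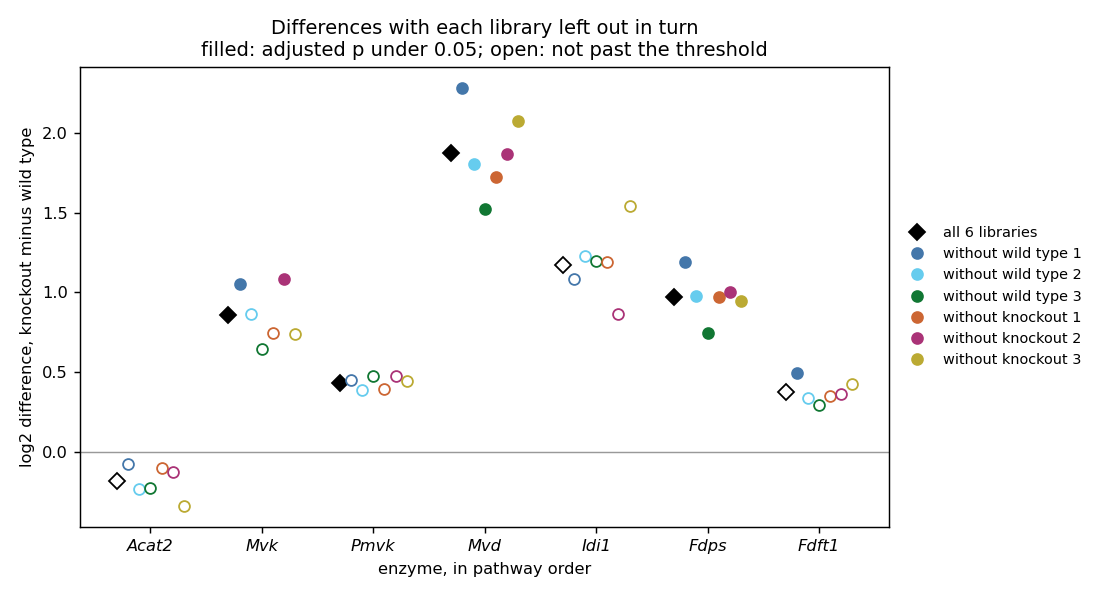
Log2 difference of each enzyme with all 6 libraries (diamonds) and with each library left out in turn (circles), filled where the adjusted p was under 0.05. Mvd and Fdps stay filled throughout, Pmvk is open in all 6 fits without 1 library, and Acat2 stays under 0.

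Lists of related genes were read from the same fit, in which 7.58% of all genes tested were called higher and 6.94% lower. Of 12 enzymes that turn squalene into cholesterol, 7 rose, 1 fell and 4 did not pass, with a median log2 difference of 0.49. Msmo1, a methyl sterol oxidase, rose from 115 ± 31.0 to 209 ± 7.96 CPM (SD, n = 3 each; log2 difference 0.91 ± 0.16, limma voom, adjusted p = 0.00277). Cyp51, the lanosterol demethylase, rose from 206 ± 22.4 to 264 ± 18.5 CPM (0.36 ± 0.11, adjusted p = 0.0443). Cyp51 missed the threshold in 4 of the 6 fits on 5 libraries (adjusted p up to 0.174), without the low-count filter and under totals without mitochondrial genes. Sc5d, lathosterol oxidase, fell from 692 ± 81.9 to 485 ± 25.2 CPM (−0.51 ± 0.11, adjusted p = 0.00754). The count of rising enzymes in this later stretch was 5 to 7 over the fits without 1 library, with 1 falling in each.

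Of 6 genes of SREBP2 and its processing, 2 rose and 4 did not pass, with a median of 0.15. Over all genes tested 7.58% were called higher, and so short a list is hard to weigh against that share. Srebf2, which encodes SREBP2, rose from 52.8 ± 10.4 to 87.9 ± 10.2 CPM (0.75 ± 0.15, limma voom, adjusted p = 0.00601). Scap, its escort from the endoplasmic reticulum, rose from 68.5 ± 12.3 to 94.5 ± 1.91 CPM (0.47 ± 0.13, adjusted p = 0.0272), which 5 of the 6 fits on 5 libraries did not call (adjusted p up to 0.109), nor did the fit under totals without mitochondrial genes (0.0573). Insig2, which retains SCAP, had a log2 difference of 0.09 ± 0.13.

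The listed genes that take isoprenoids into other products did not pass. Of 10 (Dhdds, Fntb, Fnta, Icmt and 6 others, for dolichol, ubiquinone and protein prenylation), 0 rose and 0 fell by limma voom or limma trend, with 1 at an unadjusted p under 0.05 and a median log2 difference of −0.15. Over all genes tested 14.5% were called in either direction, so 0 calls in a list of 10 says little about the list. Some of the 10 had few counts, such as Ggps1 with 19 to 33 a library. Dhdds, of dolichol synthesis, had −0.10 ± 0.14, with a 95% interval from −0.40 to 0.19. Among 4 genes of acetyl-CoA supply, Slc25a1, the mitochondrial citrate carrier, rose from 99.6 ± 9.13 to 134 ± 6.03 CPM (0.43 ± 0.11, adjusted p = 0.0181), which was not called without wild-type library 2 or without either of the knockout libraries 1 and 3 (adjusted p up to 0.0562). Acly, ATP citrate lyase, had −0.27 ± 0.11 (adjusted p = 0.109). Of the 4 ketone body genes, which use HMG-CoA in mitochondria, 1 rose: Bdh1, with 0.47 ± 0.10 (adjusted p = 0.00829; 0.0518 without wild-type library 3). With 7.58% of all genes tested called higher, 1 call in a list of 4 says little about the list.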

How the data were processed

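Cap-selected RNA in 3 wild-type and 3 SHP -/- liver samples was sequenced as 36-cycle paired-end reads with 3 barcoded samples a lane, per the labels' protocols. The submitters' processing notes name Novoalign 2.05.33 and the build mm9. For the counter, its use of strand and its handling of reads with several alignments, nothing is given in the sources used here. Of counts from 1 to 19, 61.8% were even, so counts may not be independent fragments. The authors deposited a raw count per gene and library, with a score (a scaled negative log10 of a negative binomial p and of its adjusted value), a log2 ratio and an RPKM value for each pooled group, per the file headers. Of 33495 genes, 13901 had empty cells and were left out.

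Genes with at least 1.83 CPM (10 counts at the median library) in 3 libraries and 15 counts in all were tested (11794). Counts were scaled by trimmed mean of M-values (factors 0.966 to 1.03) and fitted with limma 3.58.1 voom in R 4.3.3, by genotype alone, with Benjamini-Hochberg adjustment. On simulated data with 200 changed genes among 11794, 94% of changes of log2 size 1 and 98% of size 2 were recovered, with 9 false calls. The simulation drew independent counts and gave every gene the same dispersion, a median taken from genes with higher counts. Its shares therefore check the fit and do not give the power for single genes here, least of all for those with few counts. The labels do not say that the samples are separate animals, and p-values then measure only the spread between these samples, which may be technical. Same-numbered samples did not deviate together (correlations −0.0187, −0.0210 and −0.0244), so the numbers were not taken as pairs. The alternatives were other scalings, no filter, limma trend, robust moderation, a replicate block and leaving out each library. The members and gene lists were chosen with earlier results of these data known. Named genes were the members, Nr0b2, up to 4 genes a list in order of mean CPM with passing ones first, genes overlapping or within 1000 bases of a member, and the 5 genes whose profile was most like the members. Some genes that this rule covers are not reported here. Shared 36-base windows were counted in GENCODE M21 transcripts.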

Additional observations from a re-analysis of the deposited data

How the results depend on the processing

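No difference named for the 7 enzymes reversed under any of the 13 alternatives run, and Mvd and Fdps were called in all of them. Leaving out 1 library gave 633 to 1572 genes past the threshold, against 1713 with all 6; wild-type library 3 left out gave 633, and knockout library 1 left out gave 1073. It gave 2 to 4 mevalonate enzymes, 6 to 8 enzymes from squalene to cholesterol, and Nr0b2 log2 differences from −1.06 to −0.65. Nr0b2 was not past the threshold with plain library totals (−0.81, limma voom adjusted p = 0.0536), without the low-count filter (−0.81, 0.0647) or with the replicate number as a block (−0.79, 0.0553). The replicate block gave 1779 genes, 4 mevalonate enzymes and 8 later enzymes, and the samples share only a number, so this is no paired result. Idi1 held 8 to 30 counts a library, the fewest of the 7 enzymes.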

Other observations

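The 5 tested genes outside the arm whose log2 CPM followed the mean standardised profile of the 7 counted enzymes most closely over the 6 libraries were Hlcs (Pearson r 0.996, Spearman rho 0.943), Txn2 (0.996, 0.829), Ift140 (0.996, 1), Cox8a (0.996, 1) and Foxa1 (0.992, 0.886). Hlcs encodes holocarboxylase synthetase, which attaches biotin to carboxylases, and went from 14.7 ± 2.86 CPM in wild type to 22.0 ± 0.808 CPM in knockout (SD, n = 3 each). Txn2 encodes mitochondrial thioredoxin, Ift140 a subunit of intraflagellar transport, Cox8a a subunit of cytochrome c oxidase and Foxa1 a liver transcription factor. The libraries fall into 2 groups and the genes were picked as the highest of all tested, so these values are a description, with no test.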
